A study of Mus musculus with 32 samples.

Results

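The tibialis muscle of mice with the Gne M743T change on both alleles was compared between animals labelled sick and animals labelled healthy. Every library with those labels was taken, which gave 3 sick libraries (replicates 1, 2 and 4) and 4 healthy libraries (replicates 1 to 4), 7 of the 32 libraries of the series. The rest of the series holds the gastrocnemius and quadriceps of the same 2 states, and the same 3 muscles of wild-type mice. All mice were males aged up to 3 months, and both groups carry the same homozygous knock-in, so the comparison is between states of 1 genotype. The labels do not state the signs by which an animal was called sick, its litter or the time of day at which tissue was taken. Gne encodes the enzyme that makes N-acetylmannosamine 6-phosphate, the entry into sialic acid synthesis, and M743T is a founder variant of GNE myopathy, a recessive human muscle disease. Total RNA was sequenced, and the 7 libraries held 14620239 to 24355507 counts each. The 4 wild-type tibialis libraries are given as a level to read the others against.

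As background, adult muscle mass follows the balance of protein synthesis and breakdown. Insulin-like growth factor 1 acts through its receptor, PI3-kinase and AKT to raise translation through mTORC1 and to hold FoxO transcription factors out of the nucleus. In fasting, disuse or glucocorticoid excess, FoxO factors raise ubiquitin ligases, proteasome and autophagy genes. The collagen-rich matrix around the fibres is made mainly by fibro-adipogenic progenitors and, at the ends of the muscle, by tendon cells.

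The sick libraries did not form a tight group. On the first principal component of log2 expression, which held 48.29% of the variance, the sick libraries lay at 29.6, 78.6 and 12.9 and the healthy libraries between -37.2 and -26.2. Sick replicate 2 stood apart, with a library quality weight of 0.197 against 1.04 to 1.68 for the others (limma, library weights). Sick replicate 4 lay nearest to the healthy libraries: its mean correlation was 0.962 with the other sick libraries and 0.964 with the healthy ones. The departure of sick replicate 2 from the group mean correlated across genes with that of sick replicate 2 of gastrocnemius (r = 0.628) and of quadriceps (r = 0.569). No library was a copy of another (chi-square per gene 24.2 to 220 between replicates).

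The fast myosin heavy chain gene Myh4 was among the most abundant transcripts at 66495, 38124 and 60133 CPM in sick and 33837, 34724, 52077 and 37394 CPM in healthy libraries, and the fast fibre list summed to 138065 to 205664 CPM in sick and 153933 to 180147 CPM in healthy libraries, as in a fast muscle. CPM, read counts relative to TMM-scaled library totals, are not divided by gene length. Kidney tubule markers summed to 5.99, 7.08 and 8.73 CPM in sick, 10.7, 8.71, 9.24 and 9.85 CPM in healthy and 91.5, 121, 112 and 96.4 CPM in wild-type libraries, and Umod, Slc12a1 and Gsta2 had no read in the 7 knock-in libraries. Lymphocyte markers summed to 0.607 to 1.2 CPM in sick and 0.552 to 1.25 CPM in healthy libraries, and none was abundant enough to test.

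A model of the 7 libraries (limma-voom, Benjamini-Hochberg adjustment, threshold 0.05) called 89 of 13960 genes, 0.638%, with 32 higher (0.229%) and 57 lower (0.408%) in sick tibialis. With upper-quartile scaling the split was 488 higher and 275 lower of 763 calls, and with plain library totals 19 higher and 134 lower of 153. The adjusted p-values of the 89 genes lie between 0.0462 and 0.0495, just under the threshold, and the next gene is at 0.0503. Each of the 89 had sick and healthy CPM ranges that did not overlap, as had 29.2% of all genes tested (15% higher and 14.3% lower). A model of all 11 tibialis libraries, in which the wild-type libraries enter the estimate of the spread, called 1541 of 14520 genes for the same contrast, 10.6%, with 687 higher (4.73%) and 854 lower (5.88%), and 87 of the 89 were among them. The 7-library count was 0 without sick replicate 1, without healthy replicate 2, without healthy replicate 3 or without healthy replicate 4, 2 without sick replicate 2, 72 without healthy replicate 1 and 1039 without sick replicate 4. The 4 models with a limma count of 0 had 3186 to 3670 genes at an unadjusted p under 0.05, against 4159 (29.8%) with all 7 libraries. The 11-library count was 277 without sick replicate 1, 264 without sick replicate 2, 2199 without sick replicate 4, 888 without healthy replicate 1, 365 without healthy replicate 2, 676 without healthy replicate 3 and 656 without healthy replicate 4. All 89 genes kept their direction in each of the 7-library models with a library left out. "Rose" and "fell" are used below for genes past the threshold in the 7-library model. Genes past it only in the 11-library model are given as higher or lower with 11 libraries, and those among them that are named were chosen after their values were seen. The list counts below are to be read against the shares of all genes. These were 4.73% higher and 5.88% lower with 11 libraries, and 29.8% at an unadjusted p under 0.05 with 7.

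Gne itself had 9.86, 9.803 and 8.73 CPM in sick libraries and 9.12, 9.12, 10.7 and 10.1 CPM in healthy libraries, against 10.4, 9.32, 9.28 and 10.7 CPM in wild type. The means were 9.46 ± 0.6401 CPM in sick and 9.77 ± 0.776 CPM in healthy tibialis (SD, n = 3 and 4). The ranges overlap and the log2 fold change was -0.04 ± 0.15 (SE, limma adjusted p = 0.882). The knock-in changes 1 residue, so the level of the transcript does not check the genotype.

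The highest fold change among called genes with a mean of at least 2 CPM, ranges apart and no clone name was that of Slc7a2 (ENSMUSG00000031596, GRCm38 chr8:40862396-40922308), which encodes CAT2, a carrier of arginine, lysine and ornithine. It had 273, 524 and 219 CPM in sick libraries against 53.5, 44.7, 54.4 and 56.3 CPM in healthy libraries and 52.7, 56.9, 38.9 and 50.7 CPM in wild type. Every sick library was above every healthy one, as these limits require, and the healthy libraries lay within the range of the wild type. The log2 fold change was 2.59 ± 0.28 (SE, limma adjusted p = 0.0462), and it was 2.23 without sick replicate 2.

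Gng2, a gamma subunit of heterotrimeric G proteins, rose in the same way, with 56.1, 38.1 and 24.8 CPM in sick and 8.54, 5.91, 4.895 and 6.33 CPM in healthy libraries (log2 fold change 2.58 ± 0.32, adjusted p = 0.0462). Scn3b, an auxiliary subunit of voltage-gated sodium channels, had 11.9, 8.48 and 5.47 CPM in sick and 1.56, 1.96, 1.38 and 2.38 CPM in healthy libraries (2.15 ± 0.34 on the log2 scale, adjusted p = 0.0486). Here the highest value came from sick replicate 1 and not from replicate 2. Teddm2 rose too, at 19.9, 15.2 and 11.3 CPM in sick against 2.93, 2.999, 3.72 and 4.08 CPM in healthy libraries.

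A pair of the risen genes belong to the ubiquitin system. Ube4a, a U-box enzyme that extends ubiquitin chains, had 174, 322 and 114 CPM in sick and 44.6, 46.3, 53.98 and 50.01 CPM in healthy libraries (log2 fold change 1.92 ± 0.31, limma adjusted p = 0.0486). Asb11, a muscle substrate adaptor of a cullin ubiquitin ligase, had 345, 565 and 271 CPM in sick and 135, 71.4, 116 and 96.3 CPM in healthy libraries (1.87 ± 0.30, adjusted p = 0.0486). In both, sick replicate 2 was highest and sick replicate 4 lowest of the sick libraries. Fmo2, a flavin-containing monooxygenase, had 104, 154 and 95.4 CPM in sick and 40.2, 14.99, 32.96 and 31.4 CPM in healthy libraries (2.05 ± 0.34). Pm20d2, a dipeptidase, had 55.8, 44.1 and 39.04 CPM in sick and 12.2, 11.9, 19.2 and 15.2 CPM in healthy libraries (1.68 ± 0.21).

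**Figure D1:**
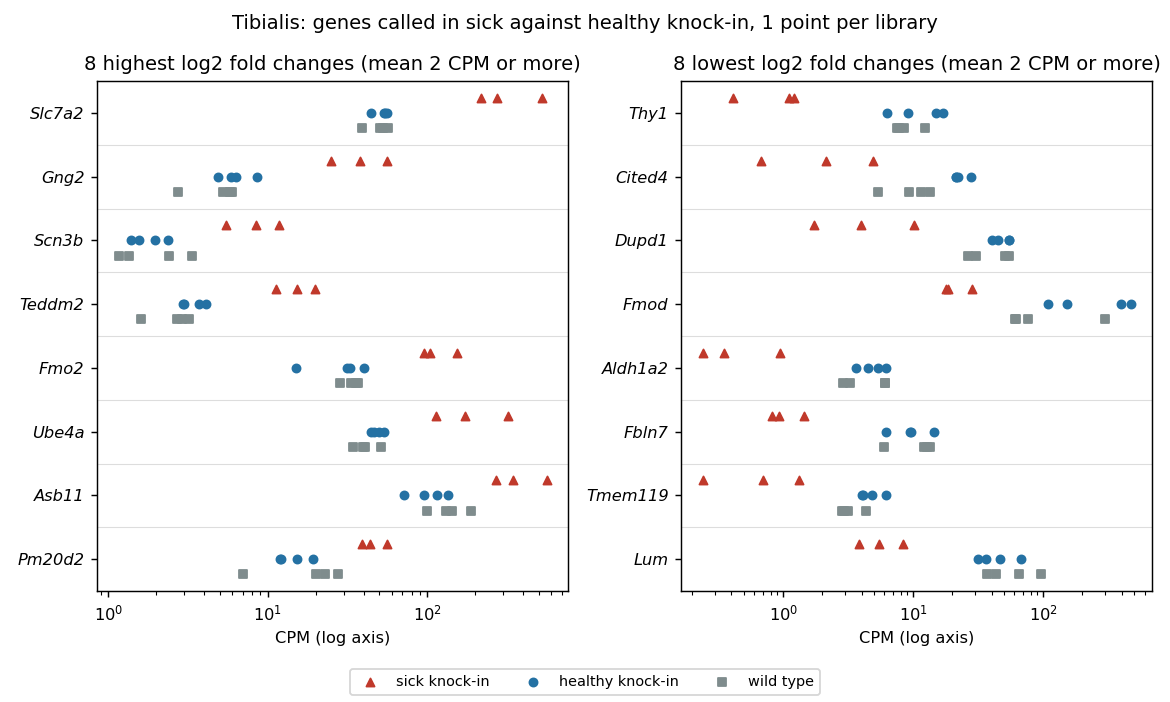
CPM on a log axis of the 8 genes with the highest (left) and the 8 with the lowest (right) log2 fold change among called genes with a mean of at least 2 CPM, ranges apart and no clone name. There is 1 point per tibialis library, with sick knock-in above healthy knock-in above wild type in each row. Sick points apart from healthy points were a condition for entry of all 16 genes. For Slc7a2 the 3 sick libraries at 219 to 524 CPM face healthy libraries at 44.7 to 56.3 CPM.

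The 8 lowest log2 fold changes under the same limits, ranges apart among them, included genes of the matrix or the fibroblast surface. Thy1, a surface glycoprotein of fibroblasts, had 0.411, 1.2 and 1.105 CPM in sick and 6.32, 16.8, 9.101 and 14.9 CPM in healthy libraries (log2 fold change -3.70 ± 0.59, limma adjusted p = 0.0486). Fmod, which encodes fibromodulin, had 18.4, 17.9 and 28.5 CPM in sick and 108, 152, 472 and 396 CPM in healthy libraries (-3.49 ± 0.53, adjusted p = 0.0486). Lum (GRCm38 chr10:97565128-97572703), which encodes the keratan sulfate proteoglycan lumican, had 5.46, 3.84 and 8.34 CPM in sick, 31.4, 66.9, 36.1 and 46.3 CPM in healthy and 95.8, 43.2, 36.99 and 65.3 CPM in wild-type libraries (-2.98 ± 0.36, adjusted p = 0.0462). In Thy1, Fmod and Lum the highest sick library was below the lowest healthy one, as the limits require. Fbln7, a fibulin, had 0.822, 0.9203 and 1.44 CPM in sick and 6.19, 14.5, 9.51 and 9.53 CPM in healthy libraries. Aldh1a2, which makes retinoic acid, had 0.352, 0.2401 and 0.939 CPM in sick and 5.34, 6.16, 3.65 and 4.49 CPM in healthy libraries, and the membrane protein gene Tmem119 had 0.705, 0.2401 and 1.33 CPM in sick and 4.04, 6.12, 4.83 and 4.08 CPM in healthy libraries. These last 3 were below 2 CPM in every sick library, with log2 fold changes of -3.22 ± 0.43, -3.47 ± 0.47 and -2.99 ± 0.50.

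Cited4 and Dupd1 complete this set of 8. Cited4, a co-activator that binds CBP and p300 and is known from exercise growth of the mouse heart, had 2.11, 0.6802 and 4.92 CPM in sick, 21.2, 27.9, 22.1 and 21.5 CPM in healthy and 5.33, 9.24, 11.4 and 13.5 CPM in wild-type libraries (-3.66 ± 0.51, adjusted p = 0.0478). Dupd1, a dual-specificity phosphatase of muscle, had 3.99, 1.72 and 10.2 CPM in sick and 40.3, 54.1, 54.7 and 44.9 CPM in healthy libraries (-3.61 ± 0.47, adjusted p = 0.0476). Both were lowest in sick replicate 2 and nearest to healthy in sick replicate 4.

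Collagen genes were lower in sick tibialis wherever they passed a test. Of 19 collagen genes tested, 1 fell with 7 libraries, 12 were lower with 11 libraries, 13 had ranges apart with sick below, and none was higher under any of these rules; their median log2 fold change was -2.07, against -0.01 over all genes. Col6a2, a chain of the collagen of the fibre surface, had 16.6, 21.2 and 37.7 CPM in sick and 80.5, 287, 149 and 237 CPM in healthy libraries (-2.83 ± 0.46, limma adjusted p = 0.0486). Col1a1, a chain of the main fibrillar collagen, had 47.6, 133 and 96.2 CPM in sick, 274, 2025, 1119 and 961 CPM in healthy and 1374, 735, 345 and 876 CPM in wild-type libraries, and its log2 fold change was -3.37 ± 0.59 with 11 libraries (adjusted p = 0.0128; 0.0529 with 7). Col3a1 had 48.6, 105 and 173 CPM in sick and 419, 2734, 480.4 and 1214 CPM in healthy libraries. The healthy libraries spread widely, from replicate 1 near the sick range to replicate 2 far above it, and the summed collagen level was 591, 1269.9 and 1167 CPM in sick, 2013, 9523, 4279 and 5405 CPM in healthy and 7147, 5174, 2446 and 4719 CPM in wild-type libraries.

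The enzymes that fold and crosslink collagen were also lower where they passed. Of 18 tested with 7 libraries, 1 fell and 11 had ranges apart with sick below, at a median of -1.19. With 11 libraries 9 of 19 tested were lower. P4ha1, a prolyl 4-hydroxylase subunit, fell (16.4, 18.7 and 29.8 CPM in sick, 51.3, 54.7, 52.3 and 63.1 CPM in healthy; -1.40 ± 0.21, adjusted p = 0.0486). Serpinh1, the collagen chaperone HSP47, had 27.2, 29.6 and 31.98 CPM in sick and 66.6, 182, 88.5 and 203 CPM in healthy libraries, and Pcolce, which aids procollagen cleavage, 15.1, 16.9 and 18.1 CPM in sick and 39.2, 97.1, 68.9 and 118 CPM in healthy libraries; both were lower with 11 libraries (adjusted p = 0.0123 and 0.00874). Of 23 matrix glycoproteins and small proteoglycans, 3 fell (Ogn, Lum and Fmod), 14 were lower with 11 libraries and 16 had ranges apart with sick below, at a median of -1.52. Ogn, which encodes osteoglycin, had 17.3, 13.4 and 21.2 CPM in sick and 49.99, 79.6, 60.1 and 73.01 CPM in healthy libraries (-1.94 ± 0.22, adjusted p = 0.0462). Sparc, a collagen-binding matrix protein, had 232, 345 and 273 CPM in sick and 388, 1411, 683 and 838 CPM in healthy libraries, and Fn1, fibronectin, 26.6, 49.4 and 64.1 CPM in sick and 88.04, 215, 123 and 263 CPM in healthy libraries. The lower counts with 11 libraries were, for collagens, 4 without sick replicate 1 or 2 and 6 without healthy replicate 2. For the enzymes they were 2 without sick replicate 1, 4 without sick replicate 2 and 5 without healthy replicate 2, and for the glycoproteins 4 without sick replicate 1 or 2 or healthy replicate 2, 7 without healthy replicate 3 and 5 without healthy replicate 4. Without sick replicate 2 that model called 264 genes in all (1.82%; 0.888% higher and 0.93% lower), and the 3 medians were -2.32, -1.35 and -1.93. Other called genes of the matrix and its turnover, named after their values were seen, were Cthrc1 (-3.04), Matn4 (-3.45), Cilp (-2.50), Bmper (-2.74), Mrc2 (-2.33), Podn (-1.55) and Efemp2 (-1.73), all log2 fold changes.

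Markers of the cells that make matrix were lower beside it, and their part in the matrix result was not tested. Of 13 markers of fibro-adipogenic progenitors, 2 fell, 6 were lower with 11 libraries and none was higher (median -1.31); they summed to 509, 1036 and 505 CPM in sick and 893, 1626, 1308 and 2123 CPM in healthy libraries. Smoc2, a calcium-binding matrix protein, had 25.1, 29.4 and 41.3 CPM in sick and 108, 139, 97.1 and 111 CPM in healthy libraries (-1.85 ± 0.20, limma adjusted p = 0.0462). Cxcl14, a chemokine of these cells, had 18.7, 35.1 and 28.99 CPM in sick and 95.1, 106, 74.6 and 122 CPM in healthy libraries (-1.86 ± 0.25, adjusted p = 0.0476). Pdgfra, the receptor by which these cells are sorted, had 15.8, 30.3 and 12.6 CPM in sick and 21.8, 40.9, 25.8 and 60.5 CPM in healthy libraries, which overlap. Sick replicate 2 had the highest sum of the sick libraries, above healthy replicate 1.

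Tendon markers had the lowest median of the 53 lists, -3.49 over 11 genes tested, with 1 fallen (Fmod) and 7 lower with 11 libraries. The count of 7 became 1 without sick replicate 1 or 2 and 3 without healthy replicate 2. Tnmd, tenomodulin, had 0.705, 0.8803 and 1.55 CPM in sick and 4.63, 17.99, 29.8 and 24.8 CPM in healthy libraries, and Comp, cartilage oligomeric matrix protein, 0.528, 1.44 and 1.71 CPM in sick and 10.8, 11.7, 54.6 and 46.2 CPM in healthy libraries. Thbs4, thrombospondin 4, had 31.6, 13.2 and 53.8 CPM in sick and 109, 130.4, 645 and 469 CPM in healthy libraries. Healthy replicates 3 and 4 were the high ones in all 3 genes, and the list summed to 72.5, 117 and 113 CPM in sick, 286, 422, 1497 and 1317 CPM in healthy and 304, 289, 261 and 972 CPM in wild-type libraries. The labels do not state how much tendon was dissected with each muscle, and its part in the result was not tested. In bulk tissue fewer cells of a type and less RNA per cell cannot be told apart, for the matrix as for every list below.

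**Figure D2:**
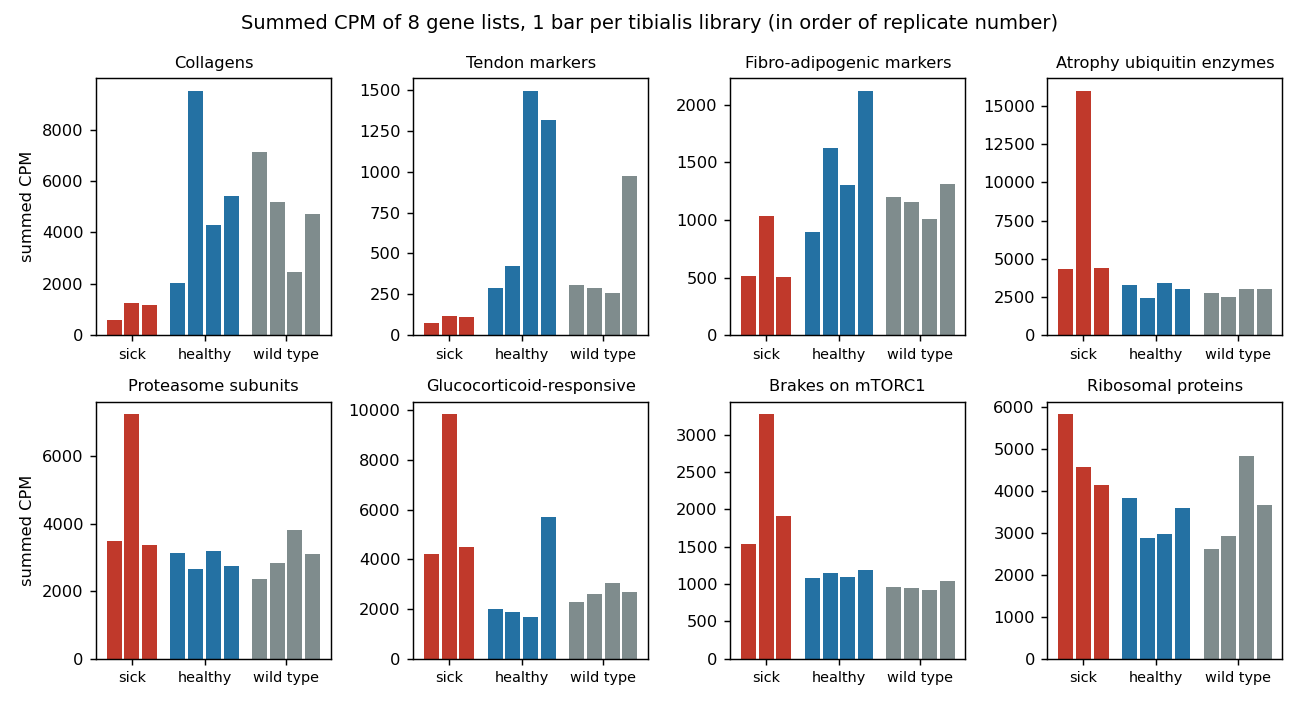
Summed CPM of 8 gene lists, with 1 bar per tibialis library in order of replicate number, for sick knock-in (3 bars), healthy knock-in (4) and wild type (4). Collagen sums are 591 to 1269.9 CPM in sick and 2013 to 9523 CPM in healthy libraries, the second sick bar is the highest in the ubiquitin, proteasome, glucocorticoid and mTORC1 panels, and the fourth healthy bar lies within the sick range only for glucocorticoid-responsive genes.

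Growth control genes moved in opposite directions within the insulin-like growth factor axis. Igf1 (ENSMUSG00000020053, GRCm38 chr10:87858265-87937042), the growth factor itself, fell: it had 6.87, 9.08 and 14.2 CPM in sick, 24.3, 51.1, 41.4 and 41.5 CPM in healthy and 26.6, 36.5, 13.2 and 25.5 CPM in wild-type libraries (-2.00 ± 0.32, limma adjusted p = 0.0486). All sick libraries were below all healthy ones, and sick replicate 4 overlapped the lowest wild-type library. Of 18 genes of the axis, Igf1 was the only one called with 7 libraries; with 11, 6 were higher and 3 lower. The count of 6 was 1 without sick replicate 1, 2 without sick replicate 2 or healthy replicate 2 or 4 and 3 without healthy replicate 1 or 3, and the count of 3 was 0 without sick replicate 1 and 1 without sick replicate 2 or healthy replicate 2, 3 or 4. Its receptor gene Igf1r had 62.5, 93.5 and 25.7 CPM in sick and 11.7, 17.2, 12.9 and 19.2 CPM in healthy libraries (1.81 ± 0.37 with 11 libraries, adjusted p = 0.0195). Pik3r1, the regulatory subunit of PI3-kinase, had 362, 147 and 94.8 CPM in sick and 31.3, 50.1, 35.4 and 42.4 CPM in healthy libraries (2.13 ± 0.35, adjusted p = 0.0106), with its highest value in sick replicate 1. Insr, Akt1, Akt2 and the fetal growth factor gene Igf2 were also higher with 11 libraries. The binding protein gene Igfbp5 had 257, 49.8 and 341 CPM in sick and 629, 1164, 632 and 747 CPM in healthy libraries (-2.21 ± 0.54, adjusted p = 0.0307), and Igfbp4 was lower as well.

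Genes that restrain mTORC1 or the translation it drives were higher where they moved. None of 16 was called with 7 libraries (7 were higher and 0 lower at an unadjusted p under 0.05), and with 11 libraries 3 were higher and none lower. Sesn1, a sestrin that restrains mTORC1 when amino acids are low and a FoxO and p53 target, had 167, 867 and 134 CPM in sick, 23.1, 25.8, 16.3 and 55.2 CPM in healthy and 24.5, 25.1, 36.1 and 27.3 CPM in wild-type libraries (3.28 ± 0.55, limma adjusted p = 0.011; 0.0555 with 7 libraries). Eif4ebp1, which blocks cap-dependent translation when mTORC1 is low, had 120.1, 529.8 and 87.1 CPM in sick and 30.7, 27.3, 25.99 and 36.8 CPM in healthy libraries (2.55 ± 0.47, adjusted p = 0.0155). Tsc1, a subunit of the inhibitory TSC complex, had 86.5, 194 and 77.5 CPM in sick and 53.2, 38.7, 54.8 and 49.8 CPM in healthy libraries. In all 3 sick replicate 2 was highest by more than 2 times, and sick replicates 1 and 4 were also above every healthy library. Without sick replicate 2 the 11-library model still called 2 of the list higher.

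The ligase genes best known from atrophy were also highest in sick replicate 2. Fbxo32, which encodes the muscle ubiquitin ligase atrogin-1, had 976, 5117 and 869.8 CPM in sick, 416, 138, 253 and 295 CPM in healthy and 312, 107, 291 and 286 CPM in wild-type libraries (2.65 ± 0.59 with 11 libraries, limma adjusted p = 0.0242). Trim63, which encodes the partner ligase MuRF1, had 321, 5423 and 536 CPM in sick and 233, 117, 159 and 452 CPM in healthy libraries, which overlap, and did not pass (adjusted p = 0.0794 with 11 libraries). Of the 18 atrophy ligases and deubiquitinases none was called with 7 libraries (8 higher and 2 lower at an unadjusted p under 0.05), and with 11 libraries 3 were higher (Fbxo32, Fbxo31 and Zfand5; 1 without sick replicate 2, 5 without sick replicate 4 and 0 without healthy replicate 2). Their median was 0.44 with all libraries and 0.17 without sick replicate 2. With the main scaling all 31 proteasome subunits had a positive log2 fold change (median 0.50). None was called with 7 libraries (11 higher at an unadjusted p under 0.05). With 11 libraries 2 of the 31 were higher, Psmd2 and Psmd1, against 4.73% of all genes. Psmd2, a regulatory particle subunit, had 341, 680.4 and 310.1 CPM in sick and 231, 173, 241 and 206 CPM in healthy libraries. Without sick replicate 2 the proteasome median was 0.18 and the count with 11 libraries was 0 without sick replicate 1 or 2 or healthy replicate 1, 2, 3 or 4 and 5 without sick replicate 4.

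Among 32 genes of FoxO factors, autophagy and lysosome, none was called with 7 libraries (14 higher and 1 lower at an unadjusted p under 0.05). With 11 libraries 3 were higher and 1 lower, against 4.73% and 5.88% of all genes. The higher count was 0 without sick replicate 1 or healthy replicate 2, 1 without sick replicate 2 and 10 without sick replicate 4, and the lower count 0 without sick replicate 1, 2 or 4 or healthy replicate 2, 3 or 4. The list median was 0.53 with all libraries and 0.30 without sick replicate 2. Foxo3, the factor best known for driving atrophy, had 106, 189 and 66.05 CPM in sick and 26.1, 37.2, 23.03 and 58.6 CPM in healthy libraries (1.68 ± 0.36, limma adjusted p = 0.0225). Foxo4 had 394, 245 and 283 CPM in sick and 176, 139, 184 and 172 CPM in healthy libraries (0.85 ± 0.18, adjusted p = 0.0194), and here sick replicate 2 was the lowest sick library. Map1lc3b, a coat protein of autophagosomes, had 283, 861 and 215 CPM in sick and 161, 146, 146 and 158 CPM in healthy libraries. Foxo6 went the other way, with 2.47, 0.5202 and 0.939 CPM in sick and 3.78, 15.5, 6.69 and 10.2 CPM in healthy libraries (adjusted p = 0.0371).

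**Figure D3:**
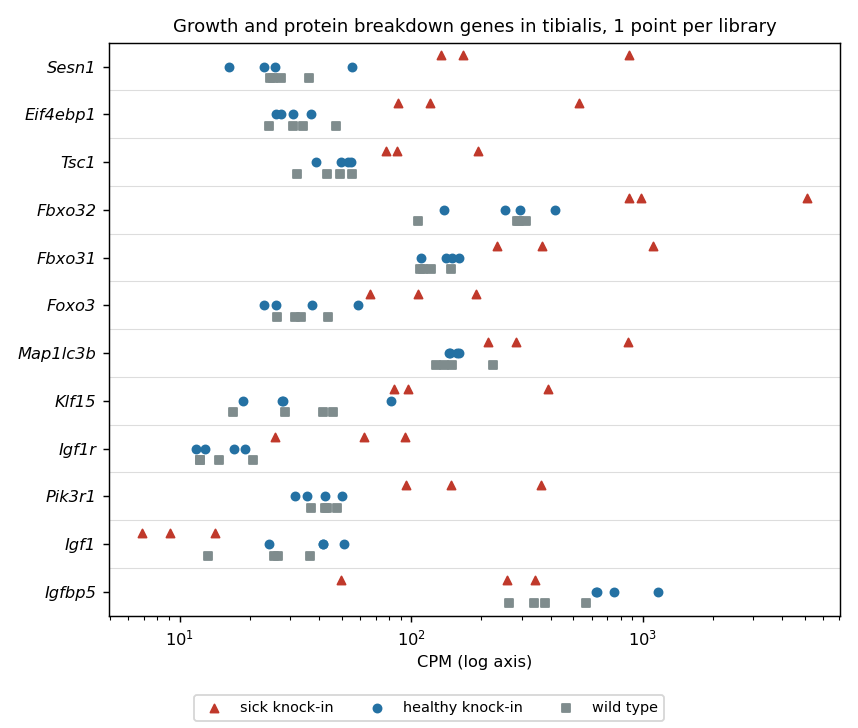
CPM on a log axis of 12 genes of growth control and protein breakdown, 1 point per tibialis library, with sick knock-in above healthy knock-in above wild type in each row. For Sesn1 the sick libraries lie at 134 to 867 CPM and the healthy ones at 16.3 to 55.2 CPM, 1 sick library lies far to the right of the other sick libraries in Sesn1, Eif4ebp1, Fbxo32 and Klf15, and Igf1 and Igfbp5 lie lower in sick than in healthy libraries.

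Promoter sequence was read for the genes named by the rule and for list members called in either model, 166 genes of which 125 had a RefSeq window (GRCm38.p6, 250 bases before to 50 after a gene's start). The core of the FoxO binding site, TGTTTAC on either strand, lay in the windows of at least 6 of them. Of these, Sesn1, Fmo2, Klf9 and Akt1 were higher in sick tibialis, and Col6a1 and Ankrd23 were lower. The listing of genes with the core left out 1 chromosome, so 6 is not a full count for the 125. The windows of Sesn1 and Klf9, the first a brake on mTORC1 and the second a glucocorticoid target, and of Fmo2, which rose, are shown 5′ to 3′ on the strand of the gene with the core in capitals.
Sesn1 (chr10:41810324-41810623, plus strand): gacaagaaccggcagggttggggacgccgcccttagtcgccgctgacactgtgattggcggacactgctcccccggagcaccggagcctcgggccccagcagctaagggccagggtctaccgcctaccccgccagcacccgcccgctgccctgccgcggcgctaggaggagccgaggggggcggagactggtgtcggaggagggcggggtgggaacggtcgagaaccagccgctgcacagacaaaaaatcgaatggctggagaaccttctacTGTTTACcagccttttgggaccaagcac
Fmo2 (chr1:162898444-162898743, minus strand): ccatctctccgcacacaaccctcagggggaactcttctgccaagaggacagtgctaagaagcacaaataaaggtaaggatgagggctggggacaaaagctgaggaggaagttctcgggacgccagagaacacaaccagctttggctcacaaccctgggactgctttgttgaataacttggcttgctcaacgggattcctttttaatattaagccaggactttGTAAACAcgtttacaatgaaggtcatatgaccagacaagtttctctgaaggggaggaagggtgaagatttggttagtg
Klf9 (chr19:23140976-23141275, plus strand): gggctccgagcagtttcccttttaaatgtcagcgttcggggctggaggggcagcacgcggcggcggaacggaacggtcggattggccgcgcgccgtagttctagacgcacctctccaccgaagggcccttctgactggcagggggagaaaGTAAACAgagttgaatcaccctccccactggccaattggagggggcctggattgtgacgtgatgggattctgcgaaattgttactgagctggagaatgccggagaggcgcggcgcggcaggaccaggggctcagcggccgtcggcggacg
Counted from the RefSeq start of the window shown, the core begins 22 bases after it in Sesn1, 28 before it in Fmo2 and 100 before it in Klf9. The GENCODE gene Fmo2 begins at 162898726 on the minus strand, so there the core lies inside the gene. Fmo2 and Sesn1 each have a second RefSeq start, and the windows there (chr1:162898709-162899008 and chr10:41887189-41887488) do not hold the core. A gene was counted where any of its windows held it. The core was found in 3.65% of all 32851 windows and in 3.15% of the 10379 tested genes that have one. Among genes with a window, it lay in 37 of the 514 higher with 11 libraries (7.2%), in 14 of the 630 lower (2.22%), in 1 of the 23 that rose and in 1 of the 44 that fell. It was 1 of 6 motifs searched, and the others were the glucocorticoid response element (GNACA and TGTNC with 3 bases between), the CCAAT box CCAAT, the TATA box TATAAA and the E-boxes CACGTG and CAGCTG, on both strands, without overlap among their letters being removed. In the order higher with 11 libraries, lower with 11 libraries and all tested genes, the glucocorticoid element was in 0.195, 0.476 and 0.453%, CCAAT in 45.7, 44.6 and 42.3%, TATAAA in 9.14, 12.2 and 9.26%, CACGTG in 10.1, 9.37 and 11.6% and CAGCTG in 17.9, 22.2 and 18.3% of genes. A match of these letters is a description of the sequence and not a binding site, and these shares were not tested.

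Glucocorticoid-responsive genes had a median log2 fold change of 1.2 over 19 genes. None was called with 7 libraries (10 higher and 1 lower at an unadjusted p under 0.05) and 5 were higher with 11. That count of 5 was 0 without sick replicate 1 or 2 or healthy replicate 1, 2 or 3, 3 without sick replicate 4 and 8 without healthy replicate 4. Glul, glutamine synthetase, had 1291, 1867 and 709 CPM in sick and 179, 230.0, 121 and 911 CPM in healthy libraries, and Cebpd, a transcription factor of the acute phase, 106, 498 and 139 CPM in sick and 17.01, 13.5, 17.4 and 98.4 CPM in healthy libraries. Klf15, a factor that drives amino acid breakdown, had 84.4, 390.1 and 96.5 CPM in sick and 27.96, 27.7, 18.8 and 81.8 CPM in healthy libraries (limma adjusted p = 0.0407 with 11 libraries). Healthy replicate 4 was the highest healthy library in each of the 3 and overlapped the sick range in Glul. The list summed to 4207, 9832 and 4481 CPM in sick and 1990.0, 1898, 1689.6 and 5692 CPM in healthy libraries, with healthy replicate 4 above sick replicates 1 and 4. Metallothioneins Mt1 and Mt2, which bind zinc, set the same library apart: Mt1 had 99.4, 1017 and 130.2 CPM in sick and 11.01, 11.9, 10.8 and 322 CPM in healthy libraries. Without healthy replicate 4 the median of the glucocorticoid list was 1.58, and without sick replicate 2 it was 0.81.

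The myostatin and activin pathway, which restrains muscle growth, gave 0 limma calls among 17 genes with 7 libraries (4 higher and 4 lower at an unadjusted p under 0.05). With 11 libraries Mstn and the receptor gene Tgfbr1 were higher and Gdf11, Fstl1 and Smad3 lower. The 2 higher calls became 0 without sick replicate 1 or 2 or healthy replicate 1, 2, 3 or 4, and the 3 lower calls 0 without sick replicate 1 or 2 and 1 without healthy replicate 2. Mstn, myostatin itself, had 135, 81.2 and 75.3 CPM in sick and 44.6, 38.2, 57.1 and 54.3 CPM in healthy libraries (adjusted p = 0.0419). Smad3, which carries the signal to the nucleus, had 106, 74.6 and 132 CPM in sick and 182, 145, 183 and 178 CPM in healthy libraries (adjusted p = 0.0302). Mstn was higher and Smad3 lower in each sick library than in the healthy ones.

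Of the stress lists, 3 of 17 integrated stress response genes, 3 of 20 p53 targets and 2 of 18 heat shock genes passed with 11 libraries, against 10.6% of all genes. None of the 17 integrated stress response genes was called in limma with 7 libraries (3 higher and 2 lower at an unadjusted p under 0.05), and with 11 libraries Atf4 was higher and Phgdh and Nupr1 lower. Atf4, the factor that drives the response, had 263, 718 and 233 CPM in sick and 134, 145, 133 and 129.7 CPM in healthy libraries (adjusted p = 0.0314), while Phgdh, an enzyme of serine synthesis and a target of ATF4, had 0.587, 0.4001 and 0.331 CPM in sick and 1.24, 2.96, 1.59 and 2.75 CPM in healthy libraries (adjusted p = 0.0266). The count of higher stress response genes was 0 without sick replicate 1 or 2 or healthy replicate 1, 2 or 3 and 3 without sick replicate 4, and that of lower ones 0 without sick replicate 1 or 2 or healthy replicate 2 or 4 and 1 without sick replicate 4 or healthy replicate 3. Of 20 p53 targets Sesn1 and Trp53inp1 were higher and Zmat3 lower with 11 libraries, and none passed with 7 (4 higher and 2 lower at an unadjusted p under 0.05). For p53 targets the higher count was 1 without sick replicate 2 or healthy replicate 1, 2 or 3 and 4 without sick replicate 4, and the lower count 0 without sick replicate 1 or 2 or healthy replicate 1, 2, 3 or 4 and 2 without sick replicate 4. Of 18 heat shock genes Dnaja1 and Hspb6 were lower with 11 libraries and none passed with 7 (1 higher and 8 lower at an unadjusted p under 0.05). Hspb6, a small heat shock protein of muscle, had 477, 279.6 and 441 CPM in sick and 921.6, 719, 1074 and 906 CPM in healthy libraries (adjusted p = 0.0232). The heat shock count was 0 without sick replicate 2 or healthy replicate 3 and 1 without healthy replicate 2 or 4. Endoplasmic reticulum chaperones and immediate early factors gave no call in either model.

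Clock genes passed in both directions. Of 19, none was called with 7 libraries (10 higher and 2 lower at an unadjusted p under 0.05); among those that passed with 11, Rora and Tef were higher and Bhlhe41 lower. The count of higher clock genes, 3 with all libraries, was 0 without sick replicate 1 or 2, 6 without sick replicate 4 and 1 without healthy replicate 2. The count of lower ones, 1 with all libraries, was 0 without sick replicate 1 or 2 or healthy replicate 1, 2 or 3. Rora, a nuclear receptor of the clock, had 206, 425 and 121 CPM in sick and 60.8, 49.4, 83.4 and 69.2 CPM in healthy libraries (limma adjusted p = 0.0216). The repressor gene Bhlhe41 had 17.8, 3.201 and 22.1 CPM in sick and 74.2, 29.03, 93.4 and 38.9 CPM in healthy libraries (adjusted p = 0.031).

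Translation factor genes were higher where they passed. Eif4b, which helps the helicase eIF4A unwind mRNA, rose: it had 379, 463 and 370.0 CPM in sick, 206, 185, 238 and 207 CPM in healthy and 194, 209.7, 206 and 205 CPM in wild-type libraries (0.94 ± 0.15, limma adjusted p = 0.0486). The 3 sick libraries were close to each other and well above the healthy ones. Of 24 translation factors 7 were higher with 11 libraries and none lower (median 0.46), and 13 had ranges apart with sick above. Eef2, the translocase of elongation, had 2162, 2101 and 1932 CPM in sick and 1293, 995, 1199 and 1235 CPM in healthy libraries (adjusted p = 0.0135 with 11 libraries). All 30 ribosomal protein genes had a positive log2 fold change (median 0.53). With 11 libraries 1 of the 30, Rpl4, was higher, against 4.73% of all genes. None was called with 7 (21 higher at an unadjusted p under 0.05), and 20 had ranges apart with sick above, against 15% of all genes. Rpl4 had 909, 699 and 633 CPM in sick and 506, 358, 434 and 442 CPM in healthy libraries. Sick replicate 1 was highest in the summed ribosomal level (5829.9, 4571 and 4135 CPM in sick, 3845, 2886, 2967 and 3592 CPM in healthy), and the ribosomal median was 0.39 without it and 0.56 without sick replicate 2. The single ribosomal call with 11 libraries remained as a count of 1 only without sick replicate 4 and was 0 without any other knock-in library. The count of higher translation factors was 1 without sick replicate 1, 2 without sick replicate 2 or healthy replicate 2, 4 without healthy replicate 1 and 3 without healthy replicate 3 or 4.

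**Figure D4:**
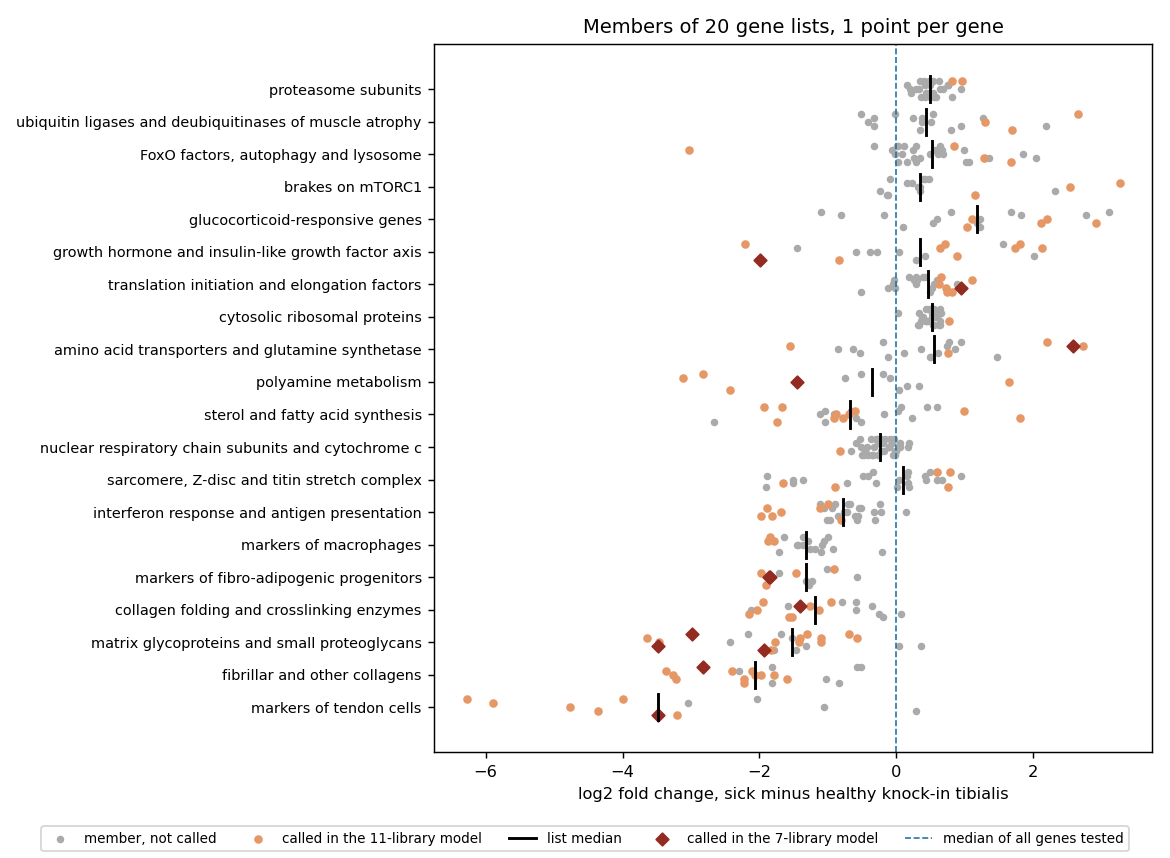
Log2 fold change, sick minus healthy knock-in tibialis, of the members of 20 gene lists, 1 point per gene tested, with the list median as a black bar and the median of all genes (-0.01) as a dashed line. Diamonds are genes called with 7 libraries and orange points genes called only with 11; the collagen, matrix and tendon medians lie at -2.07, -1.52 and -3.49, and the proteasome and ribosomal protein points lie to the right of 0.

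Amino acid transport and polyamine genes held 1 gene each that passed with 7 libraries. Of 20 amino acid transporters with glutamine synthetase, Slc7a2 rose, and 4 were higher and 1 lower with 11 libraries. The higher count was 2 without sick replicate 1 or 2 or healthy replicate 1 or 3, 8 without sick replicate 4 and 1 without healthy replicate 2. Slc43a1, a carrier of large neutral amino acids, had 43.97, 275 and 48.8 CPM in sick and 11.4, 11.6, 12 and 15.4 CPM in healthy libraries (2.72 ± 0.53, limma adjusted p = 0.0177). Azin1 (GRCm38 chr15:38487427-38519266), the antizyme inhibitor that protects ornithine decarboxylase, fell, with 15.7, 15.4 and 19.2 CPM in sick, 45.4, 45.7, 52.4 and 39.9 CPM in healthy and 36.5, 55.1, 35.1 and 42.96 CPM in wild-type libraries (-1.45 ± 0.16, adjusted p = 0.0462). The sick libraries were tight here, within 15.4 to 19.2 CPM. Of 12 polyamine genes, 1 fell, and with 11 libraries 4 were lower (1 without sick replicate 1 or 2) and 1 higher. Amd1, which makes the aminopropyl donor, had 22.8, 14.7 and 100.1 CPM in sick and 227, 107, 409 and 260.3 CPM in healthy libraries (adjusted p = 0.0189), and Smox, spermine oxidase, 25.7, 25.1 and 70.5 CPM in sick and 174, 71.9, 304 and 351 CPM in healthy libraries (adjusted p = 0.0251). Paox, a polyamine oxidase, was the member higher with 11 libraries (7.104, 24.1 and 4.805 CPM in sick, 3.13, 3.33, 3.03 and 2.93 CPM in healthy). The count of higher polyamine genes was 1 without sick replicate 4 and 0 without any other knock-in library. Counts of Amd1 and its near copy Amd2 may not be told apart.

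Sterol synthesis genes that passed were mostly lower. Of 24 sterol and fatty acid synthesis genes none was called with 7 libraries (2 higher and 11 lower at an unadjusted p under 0.05), and with 11 libraries 8 were lower and 2 higher (median -0.68). The lower count was 4 without sick replicate 1 or healthy replicate 3 or 4, 2 without sick replicate 2 and 3 without healthy replicate 2, and the higher count 0 without sick replicate 1 or healthy replicate 2 and 1 without sick replicate 2 or healthy replicate 4. Dhcr7, the last enzyme of cholesterol synthesis, had 3.64, 1.52 and 4.31 CPM in sick and 8.02, 9.58, 8.76 and 8.75 CPM in healthy libraries (limma adjusted p = 0.0125), and Scd2, a fatty acid desaturase, 16.6, 24.4 and 17.6 CPM in sick and 36.3, 88.9, 92.04 and 103 CPM in healthy libraries (adjusted p = 0.011). Fdft1, squalene synthase, the first enzyme committed to sterols, went the other way: it had 141, 382 and 88.4 CPM in sick and 61.98, 36.9, 50.7 and 43.7 CPM in healthy libraries and was higher (adjusted p = 0.0222).

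Nmrk2, the muscle kinase that makes NAD from nicotinamide riboside, had 10.6, 1.48 and 48.6 CPM in sick and 151, 135, 178 and 177 CPM in healthy libraries (-4.23 ± 0.81 with 11 libraries, limma adjusted p = 0.0165). Its lowest value was in sick replicate 2. Of 14 genes of NAD synthesis and use, 2 were higher and 2 lower with 11 libraries (median -0.02). The lower count was 1 without any knock-in library but sick replicate 4. Gamt, which methylates guanidinoacetate to creatine, had 1.29, 1 and 6.63 CPM in sick and 17.1, 24.4, 14.1 and 13.9 CPM in healthy libraries (-3.10 ± 0.52, adjusted p = 0.011). Of 22 genes of methyl group, serine and folate metabolism tested with 11 libraries, 2 were lower and 0 higher, against 5.88% and 4.73% of all genes. That lower count was 0 without sick replicate 2 and 1 without sick replicate 1 or healthy replicate 2 or 4. Alad and Uros, a pair of haem synthesis enzymes outside the lists and named after their values were seen, fell, with log2 fold changes of -1.22 ± 0.17 and -1.03 ± 0.16.

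In the sialic acid pathway, the 13 genes of synthesis, transport and removal gave no call in either model (2 lower at an unadjusted p under 0.05, Nagk and Cmas, and 0 higher). Cmas, which activates sialic acid, had 14.1, 18.1 and 17.6 CPM in sick and 24.8, 20.2, 19.9 and 24.4 CPM in healthy libraries, and Nans, which condenses the sugar phosphate, 13.2, 10.8 and 10.7 CPM in sick and 14.3, 18.03, 15.7 and 12.97 CPM in healthy libraries. Of 14 sialyltransferases, 1 fell. With 11 libraries 2 of 15 tested were lower, against 5.88% of all genes (1 without sick replicate 1 or 2 or healthy replicate 2, 3 or 4). St3gal5, which makes the ganglioside GM3, was the one that fell, with 43.6, 47.3 and 54.4 CPM in sick, 94.6, 83.9, 93.8 and 102 CPM in healthy and 98.01, 114, 139.5 and 122 CPM in wild-type libraries (-0.96 ± 0.14, limma adjusted p = 0.0486). St3gal4, which sialylates glycoproteins, had 2.99, 2.84 and 3.203 CPM in sick and 4.17, 5.58, 5.24 and 5.36 CPM in healthy libraries (adjusted p = 0.0371 with 11).

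With 11 libraries 1 of 14 fast fibre, 0 of 14 slow fibre and 5 of 28 sarcomere genes were called, against 10.6% of all genes. Of 14 fast fibre genes only Actn3, the fast Z-disc actinin, passed with 11 libraries (17497, 11946 and 15643 CPM in sick, 7990.4, 6597, 9246 and 8139 CPM in healthy; limma adjusted p = 0.0321), and no slow fibre gene passed in either model. The fast fibre count of higher genes was 0 without sick replicate 1 or 4 or healthy replicate 1, 2 or 4. Of the 14 slow fibre genes 13 had a negative log2 fold change, and 1 was lower and 0 higher at an unadjusted p under 0.05 with 7 libraries. Their median was -0.74, -0.31 without sick replicate 2 and 0.15 with library quality weights. The slow myosin gene Myh7 had 83.3, 0.16 and 0.166 CPM in sick and 0.196, 15.5, 0.207 and 15.5 CPM in healthy libraries, with high and low libraries in both groups. Of 28 sarcomere genes 3 were higher with 11 libraries (Mypn, Cmya5 and Myot) and 2 lower (Ankrd23 and Myoz3). The higher count was 0 without sick replicate 1 or 2 or healthy replicate 2 and 1 without healthy replicate 1, 3 or 4, and the lower count 0 without sick replicate 2 or healthy replicate 1, 2, 3 or 4. Mypn, myopalladin of the Z-disc, had 589.6, 689 and 501 CPM in sick and 335, 319, 359 and 378 CPM in healthy libraries (adjusted p = 0.0224). Of 42 nuclear respiratory chain genes 1, Cycs, was lower with 11 libraries (132, 89.1 and 157 CPM in sick, 245, 213, 192 and 220.2 CPM in healthy). That count was 0 when any knock-in library but sick replicate 4 was left out. Of the 42, 38 had a negative log2 fold change (median -0.24, and -0.07 without sick replicate 2). With 7 libraries 11 were lower and 0 higher at an unadjusted p under 0.05, against 29.8% of all genes in either direction. Ranges were apart with sick below in 12, against 14.3% of all genes, and with sick above in 1. No fatty acid oxidation gene passed. Of 17 genes of mitochondrial biogenesis and PPAR cofactors 5 were higher with 11 libraries (Ppargc1a, Nrf1, Gabpa, Polg and Polrmt) and none passed with 7 (9 higher and 1 lower at an unadjusted p under 0.05). The count of 5 was 0 without sick replicate 1 or 2 or healthy replicate 2 or 3 and 1 without healthy replicate 1 or 4. Ppargc1a, the co-activator PGC-1alpha, had 64.1, 67.7 and 47.5 CPM in sick and 34.1, 35.4, 40.3 and 43.2 CPM in healthy libraries (adjusted p = 0.0419). The mitochondrial genome took 12.3, 8.28 and 12.3% of counts in sick and 14.6, 11, 12.7 and 11.9% in healthy libraries (10.9 ± 2.31% and 12.5 ± 1.52%, SD, n = 3 and 4). The difference of -1.61 percentage points gave p = 0.4 in a two-sided exact permutation test, whose smallest possible value with 3 against 4 libraries is 0.0571.

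Interferon and antigen presentation genes were lower where they passed. Of 28 none was called with 7 libraries (18 lower and 0 higher at an unadjusted p under 0.05), 7 were lower with 11 and 15 had ranges apart, all with sick below (median -0.78). The count with 11 libraries was 0 without sick replicate 1 or 2, 3 without healthy replicate 1, 2 without healthy replicate 2 and 1 without healthy replicate 4. B2m, the light chain of class I molecules, had 42.7, 61.4 and 52.1 CPM in sick and 107, 111, 73.98 and 131 CPM in healthy libraries (limma adjusted p = 0.046). Cd74, the invariant chain of class II molecules, had 5.11, 12.6 and 20.2 CPM in sick and 57.2, 42.2, 29.4 and 38.9 CPM in healthy libraries (adjusted p = 0.0266). Macrophage markers stood beside them: of 18, H2-Aa, Cd74 and H2-Ab1 were lower with 11 libraries (0 without sick replicate 1 or 2 or healthy replicate 2), and the list summed to 67.7, 336 and 103 CPM in sick and 294, 302, 190.3 and 601 CPM in healthy libraries. Adgre1, the macrophage receptor F4/80, had 0.881, 4.601 and 1.21 CPM in sick and 5.93, 5.91, 3.31 and 8.71 CPM in healthy libraries, with sick replicate 2 inside the healthy range. The part of macrophage number in the lower immune genes was not tested.

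Markers of other cell types passed singly or not at all. Endothelial markers had a median of 0.12 over 16 genes, with Flt1, a receptor for vascular endothelial growth factor, higher with 11 libraries (217, 182 and 171 CPM in sick, 101, 87.01, 91.1 and 155 CPM in healthy; limma adjusted p = 0.0366). Of 12 satellite cell markers tested with 11 libraries 1 was higher, Cdh15 (33.5, 32.6 and 23.4 CPM in sick, 20.5, 18.1, 19.2 and 14.1 CPM in healthy). Smooth muscle, Schwann cell and erythrocyte lists gave no call in either model. Of 11 adipocyte markers Plin4, a lipid droplet protein also made by muscle fibres, was higher with 11 libraries (1058, 1485 and 757 CPM in sick, 176, 257, 118 and 646 CPM in healthy), while Adipoq, the adipocyte hormone adiponectin, had 0.587, 8.72 and 1.21 CPM in sick and 2.02, 21.2, 3.103 and 28.4 CPM in healthy libraries and did not pass (adjusted p = 0.264). The counts of these 3 single calls were 0 without sick replicate 1, without sick replicate 2 or without healthy replicate 2.

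The sick-healthy difference in tibialis was then set against that in the other 2 muscles, in a model of the 20 knock-in libraries. Against gastrocnemius 1 of 14708 genes, Ankrd1, passed (0.0068%; 971 genes, 6.6%, at an unadjusted p under 0.05). Against quadriceps none passed (0%; 350 genes, 2.38%, at an unadjusted p under 0.05). Ankrd1 (GRCm38 chr19:36111961-36120099) encodes a titin-binding protein of the I-band that is known to rise with stretch and injury. In gastrocnemius it had 71.9, 96.2 and 88.5 CPM in sick and 6.03, 4.91 and 4.57 CPM in healthy libraries, and in quadriceps 77.6, 73.3 and 34.6 CPM in sick and 12.97, 9.96, 7.51 and 4.77 CPM in healthy libraries. In tibialis it had 22.4, 3.64 and 10.3 CPM in sick and 34.7, 12.95, 51.6 and 20.3 CPM in healthy libraries, which overlap. Sick was far above healthy in both other muscles and not in tibialis. The tibialis change less the gastrocnemius change was -5.61 ± 0.83 on the log2 scale (limma adjusted p = 0.0462), and less the quadriceps change -4.35 ± 0.76 (adjusted p = 0.339). The first value stayed between -6.21 and -4.84 in 11 alternative models and passed in 3 of them.

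**Figure D5:**
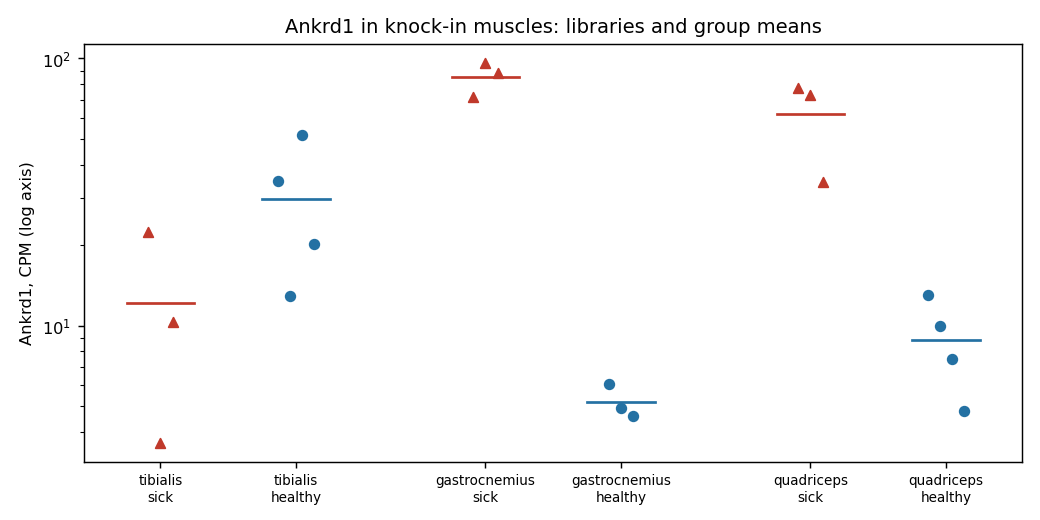
Ankrd1 CPM on a log axis in knock-in tibialis, gastrocnemius and quadriceps, sick left of healthy in each muscle, with 1 point per library and the group mean as a line. Sick means are 85.5 CPM in gastrocnemius and 61.8 CPM in quadriceps against healthy means of 5.17 and 8.80 CPM, whereas in tibialis the sick mean of 12.1 CPM lies below the healthy mean of 29.9 CPM.

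Because same-numbered libraries departed together across muscles, the model was also run with state and number as a random block (estimated correlation 0.572). It called 37 genes against gastrocnemius (0.252%), 27 with a positive and 10 with a negative difference, and 0 (0%) against quadriceps in limma. Ankrd1 was among them at -5.68 ± 0.83 (adjusted p = 0.0175). Sox6, a repressor of slow fibre genes, had the lowest p at 1.10 ± 0.15 (adjusted p = 0.00697, against 0.217 without the block): its mean was 219 ± 27.3 CPM in sick and 149 ± 17.4 CPM in healthy tibialis, and 121 ± 10.1 CPM in sick and 186 ± 29.7 CPM in healthy gastrocnemius. Mstn, myostatin, the muscle's own growth inhibitor, averaged 97.1 ± 32.7 CPM in sick and 48.5 ± 8.75 CPM in healthy tibialis, and 113 ± 53.8 CPM in sick and 141 ± 40.9 CPM in healthy gastrocnemius (difference 1.68 ± 0.34, adjusted p = 0.0491). Lmcd1, a LIM protein of striated muscle, had a difference of -3.52 ± 0.63 (adjusted p = 0.0452), with means of 72.5 ± 35.4 CPM in sick and 131 ± 60.9 CPM in healthy tibialis and 221 ± 117 CPM in sick and 33.05 ± 17.1 CPM in healthy gastrocnemius. Mstn and Lmcd1 were named after their values were seen.

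In the same 20 libraries, without the block, several genes named for tibialis were read in the other muscles. Slc7a2 changed by 3.07 ± 0.32 in gastrocnemius and 2.25 ± 0.29 in quadriceps on the log2 scale (limma adjusted p = 0.000259 and 0.00145), Igf1 by -1.84 ± 0.49 and -2.13 ± 0.49 (0.0201 and 0.0165), and Azin1 by -1.24 ± 0.21 and -1.41 ± 0.20 (0.00284 and 0.0021), each with gastrocnemius before quadriceps. Lum changed by -1.37 ± 0.46 in gastrocnemius (adjusted p = 0.0537) and -1.65 ± 0.42 in quadriceps (adjusted p = 0.0224), and the difference between tibialis and gastrocnemius did not pass (-1.61 ± 0.66, adjusted p = 0.725). St3gal5 changed by 0.23 ± 0.28 in gastrocnemius and -0.20 ± 0.26 in quadriceps, neither past the threshold (adjusted p = 0.599 and 0.638), and its difference between tibialis and gastrocnemius was -1.18 ± 0.39 (adjusted p = 0.695).

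Healthy knock-in tibialis was set beside wild type for 4 of the named genes, and none of the 4 differences passed. The log2 difference, healthy minus wild type, was 0.08 ± 0.23 for Slc7a2, -0.37 ± 0.32 for Lum, 0.68 ± 0.31 for Igf1 and 1.31 ± 0.36 for Cited4 in the 11-library model (limma adjusted p = 0.999, 0.999, 0.999 and 0.389). Sick minus wild type, which shares the sick libraries with the main comparison, gave 2.67 ± 0.25 for Slc7a2, -3.35 ± 0.41 for Lum, -1.32 ± 0.37 for Igf1 and -2.35 ± 0.53 for Cited4 (limma adjusted p = 0.000162, 0.000874, 0.0316 and 0.0161). The part of the kidney transcripts in the wild-type values was not tested. The authors' deposited table for sick against healthy tibialis lists 3034 of 25204 genes with an adjusted p under 0.05, 1632 higher and 1402 lower, and all 89 genes called here are among them in the same direction.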

How the data were processed

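Total RNA of 32 muscle samples was sequenced by the authors, and 1 table of all genes was deposited. Reads were trimmed with cutadapt 1.18, aligned with TopHat2 2.1.1, counted with HTSeq 0.6.0 and analysed with DESeq2 1.22.1, per the submitters' processing notes. Neither the strandedness of counting nor the annotation release was stated in the labels. The deposited raw columns hold whole-number counts per gene with a question mark for 6252 of 54838 genes, which were left out here. The authors' normalized columns and their log2 fold changes and adjusted p-values were used only to compare calls.

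The 7 libraries (14620239 to 24355507 counts) were analysed with limma 3.58.1 in R 4.3.3. Genes were kept with a CPM worth 10 counts in a median-size library (0.511 CPM) in 3 libraries and 15 counts in all. Library totals were multiplied by TMM factors (trims 0.3 and 0.05), counts entered voom with an offset of 0.5, and variances were moderated robustly. P-values were adjusted by Benjamini-Hochberg over all genes tested at 0.05. The second model had 11 tibialis libraries and the third 20 knock-in libraries. The count tests first planned were replaced by limma because of the question marks. Other scalings, filters, fits, library weights and models without each library were tried.

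Genes were named by rule: Gne; the 8 highest and 8 lowest log2 fold changes among called genes with a mean of at least 2 CPM, ranges apart and no clone name; up to 3 called members of each list; and up to 4 called genes of each difference between muscles. The 53 lists (1012 entries, 936 tested) and the comparison itself were chosen with earlier results of these data known. Gene positions are from GENCODE M21 on GRCm38. The labels do not say whether replicates, or the same number in different muscles, come from 1 mouse. P-values therefore measure the spread between these samples, which may be technical. Same-numbered libraries of 1 state were taken as paired across muscles on the data alone. Their departures from the group mean correlated in all 11 pairs of tibialis with another muscle (r = 0.328 to 0.659 across genes). In 35 pairs with different numbers r was -0.671 to 0.28. Departures cancel within a group, so a positive r for same numbers pushes r for different numbers down. The second range is therefore not an independent contrast. On simulated counts the script was tested for recovery of known fold changes.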

Additional observations from a re-analysis of the deposited data

Results flagged for a closer look

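Cited4 in healthy knock-in tibialis was flagged because healthy replicate 2, at 27.9 CPM, lay far from the other 3 healthy libraries, with a gap to the nearest equal to 0.859 of the whole range of the group. Chance flags about 1 group in 20, and 28 groups of values were examined. The sick libraries were all below the 4 healthy ones, as the rule that named the gene requires, with or without that library.

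Ankrd1 was flagged because its sick-healthy change differed between muscles by a test of the difference, at -5.61 ± 0.83 on the log2 scale for tibialis minus gastrocnemius (limma adjusted p = 0.0462).

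Kidney tubule markers were flagged in the wild-type tibialis libraries, which enter the comparison only through models with wild type in the fit: their highest summed level was 121.3 CPM, against at most 8.73 CPM in sick and 10.7 CPM in healthy tibialis. The 7-library model holds no wild-type library.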

How the results depend on the processing

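The number of genes called for sick against healthy tibialis, 89 with 7 libraries, was 1541 with 11 and 2851 with all 32 libraries. It was 188 with median-of-ratios size factors, 763 with upper-quartile scaling, 542 with no filter, 186 with a stricter filter and 562 with limma-trend. Alternatives chosen after seeing the data gave 1193 with library quality weights, 153 with plain library totals and 2320 at a threshold of 0.10. Leaving out 1 library gave 0 to 1039 with 7 libraries. With 11 it gave 277, 264 and 2199 (sick replicates 1, 2 and 4) and 888, 365, 676 and 656 (healthy replicates 1 to 4). Upper-quartile scaling moved the median of all genes to 0.07 and plain totals moved it to -0.12 on the log2 scale. Without robust moderation the count was 98. All 89 genes kept their direction in each 7-library setting that tested them. The cause of these shifts was not tested. The log2 fold change of Gne did not pass in any setting. It turned positive with upper-quartile scaling (0.041), with replicate number as a fixed factor and healthy replicate 3 left out (0.000433), and without healthy replicate 3 alone (0.000509). The last was the highest of the values with 1 library left out, and the lowest was -0.078 without healthy replicate 1.

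With replicate number as a fixed factor 0 genes were called in limma for sick against healthy tibialis, with 2783 at an unadjusted p under 0.05. That fit also left out healthy replicate 3, whose number no sick library has. Without healthy replicate 3 alone the count was 0 too, with 3441 at an unadjusted p under 0.05, so the 0 cannot be credited to the factor. Departures of same-numbered sick and healthy tibialis libraries had r = 0.06, -0.09 and -0.20 across genes, within the -0.22 to 0.30 of different-numbered pairs. The labels do not state what the number marks. The difference from gastrocnemius, 1 gene, was 0 with median-of-ratios factors, with no filter and with all 32 libraries. It was 37 with state and number as a random block in the 20 knock-in libraries, a different model from the fixed factor above. With 1 library left out it was 0 to 3 (Fgd4, Ankrd1 and Cryab without sick replicate 1). The difference from quadriceps was 0 in all 11 alternatives. The mitochondrial share differed by -2.28 to -0.276 percentage points with 1 library left out.

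The planned count tests of 2 other packages were not run, because the deposited raw columns hold question marks for some genes beside the whole-number counts. With 3 sick libraries that differ this much, a gene that did not pass is not shown to be equal between the groups. Low genes rest on few counts in the sick libraries.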
